A study of Mus musculus with 12 samples.

Results

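The genes described here are named for the proteins of the mouse cytosolic ribosome. They were chosen by name, as symbols that start with Rpl or Rps and go on with a number, together with Rplp0, Rplp1, Rplp2 and Rpsa. This gave 81 of the 12208 genes in the count table. The rule used no measured value, but the family was chosen with earlier results of these data known. Of the 81 genes, the 32 with symbols that start with Rps were counted as small subunit genes and the other 49 as large subunit genes. All 81 passed the filter on low counts, which left 12027 tested genes in all. The paralogs Rpl39l, Rpl3l and Rpl10l are not analysed here. Rpl6l is annotated as a processed pseudogene in GENCODE M21 and is kept among the 49.

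The ribosome translates mRNA in all cells. Its small subunit decodes the mRNA, and its large subunit forms peptide bonds and carries a stalk that recruits elongation factors. Ribosomal protein mRNAs are abundant and stable, and most begin with a pyrimidine-rich stretch, the 5′ terminal oligopyrimidine or TOP motif, through which the LARP1 and mTOR pathway sets how much of them is translated.

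RNA came from 4 lines of 393P, a mouse lung adenocarcinoma cell line labelled epithelial and non-metastatic. The lines were labelled Zeb1_mimetic, Zeb1_deficient, Zeb1_WT and GFP_Vector, the last being the negative control, and none was treated. Zeb1 is a zinc finger factor that binds E-boxes and represses epithelial genes, and the series title places the study in acetylation of this protein. The labels do not say which change the mimetic and deficient forms carry, which promoter drives them or whether a line is 1 clone. Each form is a single line, so the form of Zeb1 and other differences between lines cannot be told apart. Each line had 3 libraries labelled as biological replicates, while the series text speaks of 2 replicates. Nothing says that the cultures were separate, so the p-values measure only the spread between these libraries, which may be technical.

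Levels are given in CPM, the count of a gene scaled to a fixed total after the library total was multiplied by its TMM factor. These factors, which even out differences in composition between libraries, ran from 0.97 to 1.03. Counts came from 3′ tag sequencing, which counts tags near the end of a transcript. A level therefore does not grow with transcript length. Library totals ran from 24356697 to 39029599 counts. Zeb1 itself stood at 214, 234 and 236 CPM in the mimetic line, 485, 470 and 496 CPM in the deficient line, 245, 250 and 236 CPM in the WT line, and 30.1, 34.4 and 29.3 CPM in the vector line. The tags do not separate the Zeb1 forms from each other or from the endogenous gene. Of 8 epithelial markers 6 were tested, namely Cdh1, Krt7, Krt8, Krt18, Krt19 and Cldn7. Their summed level, mostly from the keratins (Krt), was 5560 to 5730 CPM in the mimetic line and 7690 to 7820 CPM in the deficient line. It was 4170 to 4320 CPM in the WT line and 9050 to 10500 CPM in the vector line. Markers of other cell types were low: 3 of 6 fibroblast markers summed to between 1.07 and 3.47 CPM over the 12 libraries, Cd68, the only 1 of 5 leukocyte markers that was tested, stood at 2.12 to 8.43 CPM, and 2 of 3 endothelial markers summed to 0.29 to 7.15 CPM.

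Transcription start sites of some of the genes named below are shown first, since the TOP motif is the feature most tied to this family. Each line gives 60 bases of RefSeq sequence (GRCm38.p6) around an annotated start, 5′ to 3′ on the gene's strand, with the start at base 31. Capitals mark a run of at least 6 C or T, counted from a C within 10 bases of the start. Further C or T letters can stand just before a marked run, and that of Rps27l ends before the annotated start.
Rps27, chr3:90213619-90213678, minus strand: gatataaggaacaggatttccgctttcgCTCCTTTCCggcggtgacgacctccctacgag
Rps24, chr14:24490648-24490707, plus strand: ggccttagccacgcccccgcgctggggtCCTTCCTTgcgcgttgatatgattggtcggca
Rpl34, chr3:130730369-130730428, minus strand: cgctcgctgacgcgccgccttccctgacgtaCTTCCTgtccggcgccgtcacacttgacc
Rpl22l1, chr3:28805478-28805537, plus strand: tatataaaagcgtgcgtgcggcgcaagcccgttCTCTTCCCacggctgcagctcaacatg
Rps27l, chr9:66946056-66946115, plus strand: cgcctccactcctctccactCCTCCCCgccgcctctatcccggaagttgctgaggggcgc
Rpl9, chr5:65391402-65391461, minus strand: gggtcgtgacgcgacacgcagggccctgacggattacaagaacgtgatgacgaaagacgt
Rplp0, chr5:115559437-115559496, plus strand: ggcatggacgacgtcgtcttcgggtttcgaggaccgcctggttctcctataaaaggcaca

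The first 5 of these windows hold such a run, and those of Rpl9 and Rplp0 do not. Rps24 and Rps27l each have a second annotated start without a run, and none was found at the starts of Rpsa, Rpl5, Rpl11, Rpl22, Rpl23 or Rps4x. RefSeq promoters (GRCm38.p6, from 250 bases before to 50 bases after a start) were matched by symbol to 60 of the 81 genes. A run was present in 33 of the 60 genes, or 55%, against 23.2% of 9303 other genes of the table and 19.2% of all 32851 promoter windows. The lack of a run says only that these letters are not near the annotated start.

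Other motifs were searched on both strands of the promoter windows. The E-box CAGGTG, a sequence that Zeb1 is known to bind, was found in 6 of the 60 genes (10%), against 21.1% of the other genes, and the related CAGGTA in 3 (5%), against 10.1%. CCGGAAG, a form of the site of ETS factors such as GABP, was found in 25 genes (41.7%), against 20.4%. TATAAA was found in 7 genes (11.7%), against 8.56%, and AAGATGGCG, a form of the YY1 site, in 4 genes (6.67%), against 3.64%. These matches describe letters in a window and are not sites.

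The whole family took up a larger part of the RNA in every line with Zeb1 than in the vector line. Ribosomal protein genes held 7.22, 7.08 and 7.14% of all gene counts in the mimetic libraries. They held 6.6, 6.6 and 6.26% in the deficient libraries and 7.66, 7.62 and 7.69% in the WT libraries. The vector libraries had 5.78, 5.49 and 6.11%. The WT libraries were the highest and the vector libraries the lowest, and no 2 lines overlapped. The means were 7.15 ± 0.07% in the mimetic line, 6.49 ± 0.2% in the deficient line, 7.66 ± 0.035% in the WT line and 5.79 ± 0.31% in the vector line (SD, n = 3 each). These shares carry no test. In bulk RNA, fewer cells with a high level and less RNA per cell cannot be told apart.

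The order of the lines by this share was the reverse of their order by epithelial marker sum. Cdh1 and each keratin ran in the order of the sum. Cldn7 did not, with means of 0.389, 0.374, 0.164 and 0.359 CPM in mimetic, deficient, WT and vector. The share of mitochondrially encoded counts ran in the same order as the sum. It was 0.482 to 0.504% in the mimetic line and 0.698 to 0.722% in the deficient line. In the WT line it was 0.396 to 0.426%, and in the vector line 0.814 to 0.998%. Counts in satellite-containing gene models made up 0.574 to 1.65% in the deficient line and 0.41 to 0.603% in the vector line, and at most 0.0312% in the other libraries. The part of these differences in the ribosomal protein levels was not tested. With both gene classes left out of the total, the mean shares were 7.19% in the mimetic line and 6.6% in the deficient line. They were 7.69% in the WT line and 5.88% in the vector line.

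**Figure D1:**
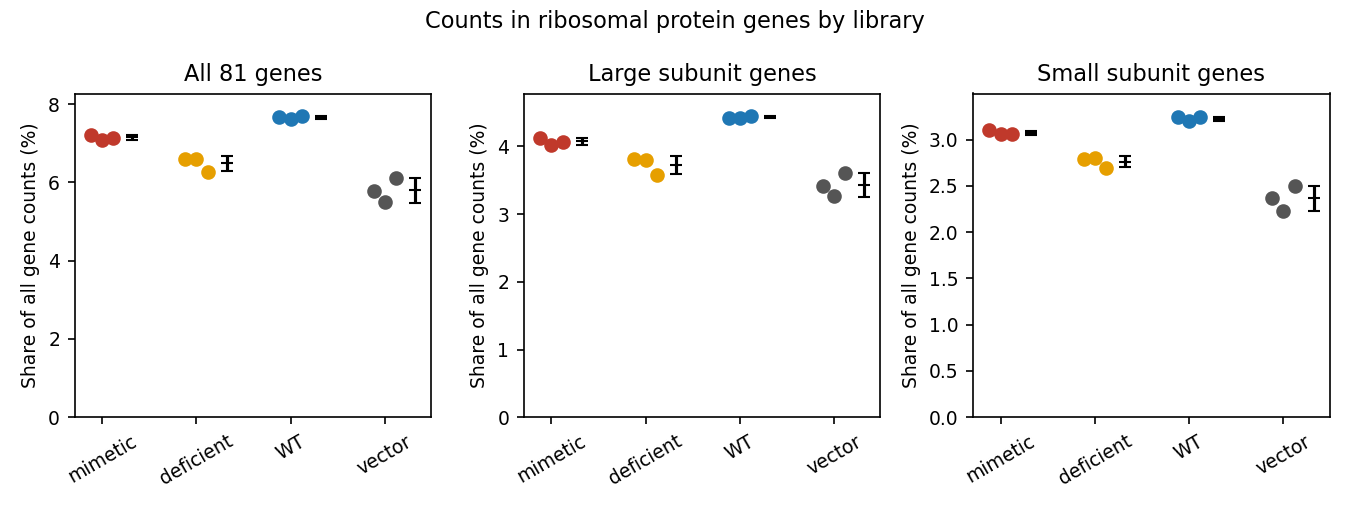
Share of all gene counts (%) in the 81 ribosomal protein genes, the 49 large subunit genes and the 32 small subunit genes. Points are libraries, and the bars beside them give the mean and SD of 3 libraries per line; the WT libraries lie highest, at 7.62 to 7.69% for all 81 genes, and the vector libraries lowest, at 5.49 to 6.11%.

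The 2 subunits did not move by the same amount. The large subunit genes had 1.33, 1.31 and 1.33 counts per count of the small subunit genes in the mimetic libraries, 1.36, 1.36 and 1.32 in the deficient libraries, 1.36, 1.38 and 1.37 in the WT libraries, and 1.44, 1.46 and 1.44 in the vector libraries. The vector libraries were the highest, and no Zeb1 library reached them. Rpsa, a small subunit protein also known as the precursor of the laminin receptor, alone held 9.31 to 10.2% of the family's counts in the mimetic line.

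Some libraries stood apart within their line. Vector library 3 was the highest of its line for 73 of the 81 genes, and vector library 2 the lowest for 70. Deficient library 3 was the lowest of its line for 66. The genes of a library thus shifted together, and counts of called genes are not counts of independent events. Values without these libraries are given where they matter.

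Mean levels over the 12 libraries ran from 0.59 CPM for Rpl24 to 6464 CPM for Rpsa, with a median of 561 CPM. At least 100 CPM was reached by 74 genes and at least 1000 CPM by 24. Next after Rpsa came Rpl4 at 3271 CPM, Rpl8 at 2703 CPM, Rpl23 at 2481 CPM and Rpl7a at 2240.0 CPM. Rpl4 lines the tunnel through which the new peptide leaves, and Rpl8 lies near the site of peptide bond formation. The lowest after Rpl24 were Rpl6l at 2.88 CPM, Rpl22l1 at 13.6 CPM, Rpl29 at 21 CPM and Rpl34 at 31.4 CPM.

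Such low levels can depend on how tags were assigned. Rpl24 overlaps a second gene model on its own strand, Rpl29 has 3 annotated copies with a near-identical end, and the counting rule for such tags is not given in the sources used here. Of 80 genes searched, 16 had at least 1 annotated copy that matched the last 150 bases with at least 95% identity over at least 90% of them. These 16 genes had a median level of 789 CPM, against 524 CPM for the other 64. Among the genes described below, Rps27, Rpl9, Rplp1, Rpl41 and Rps2 had 1 such copy each and Rps18 had 2, so their tags may be split. Of the 81 genes, 15 overlap a measured gene of the opposite strand, and the strand used in counting is not stated.

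Against the vector line, most ribosomal protein genes were called higher in the mimetic and WT lines, and 32 of the 81 in the deficient line. A gene was called where edgeR's quasi-likelihood test gave a Benjamini-Hochberg adjusted p under 0.05 over all tested genes. In mimetic against vector, 56 genes rose and 3 fell, where 28.6% of all tested genes rose and 30.9% fell. In deficient against vector, 32 rose and 9 fell, where 28.4% of all tested genes rose and 29.8% fell. In WT against vector, 70 rose and 2 fell, where 31% of all tested genes rose and 33.6% fell. The 3 comparisons share the vector libraries.

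The median log2 fold change of the 81 genes was 0.22 in mimetic against vector, 0.09 in deficient against vector and 0.37 in WT against vector, while the median of all tested genes lay between -0.01 and 0. In deficient against vector the share of risers (39.5%) was thus nearest to that of all genes. Without vector library 3, the count of risers was 65 in mimetic against vector and 41 in deficient against vector. Without vector library 2, it was 50 in mimetic and 27 in deficient. Most shifts were small. With a test against a minimum fold change of 1.2, 23 genes were higher in mimetic, 12 in deficient and 43 in WT (14.7%, 13.9% and 16.2% of all genes), and 0, 0 and 1 were lower (15.8%, 14.3% and 20.2%). At an unadjusted p under 0.05 that test also gave 0 lower genes in mimetic and in deficient.

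Genes of like abundance gave other shares. Of the 74 ribosomal protein genes with at least 100 CPM, 68.9% rose in mimetic, 37.8% in deficient and 89.2% in WT against vector. Of the 2332 other genes above that floor, 27.4%, 28.9% and 35.5% rose. In the same order, 4.05%, 12.2% and 1.35% of the 74 genes fell, and 42.9%, 40.8% and 39.7% of the others. Small subunit genes rose in 25 of 32 in mimetic, 15 in deficient and 29 in WT, and large subunit genes in 31 of 49, 17 and 41. Scaling by library size alone, without TMM factors, moved the split of all called genes in mimetic against vector to 4334 higher and 3004 lower, from 3438 and 3720, and left 1 ribosomal protein gene called lower there.

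**Figure D2:**
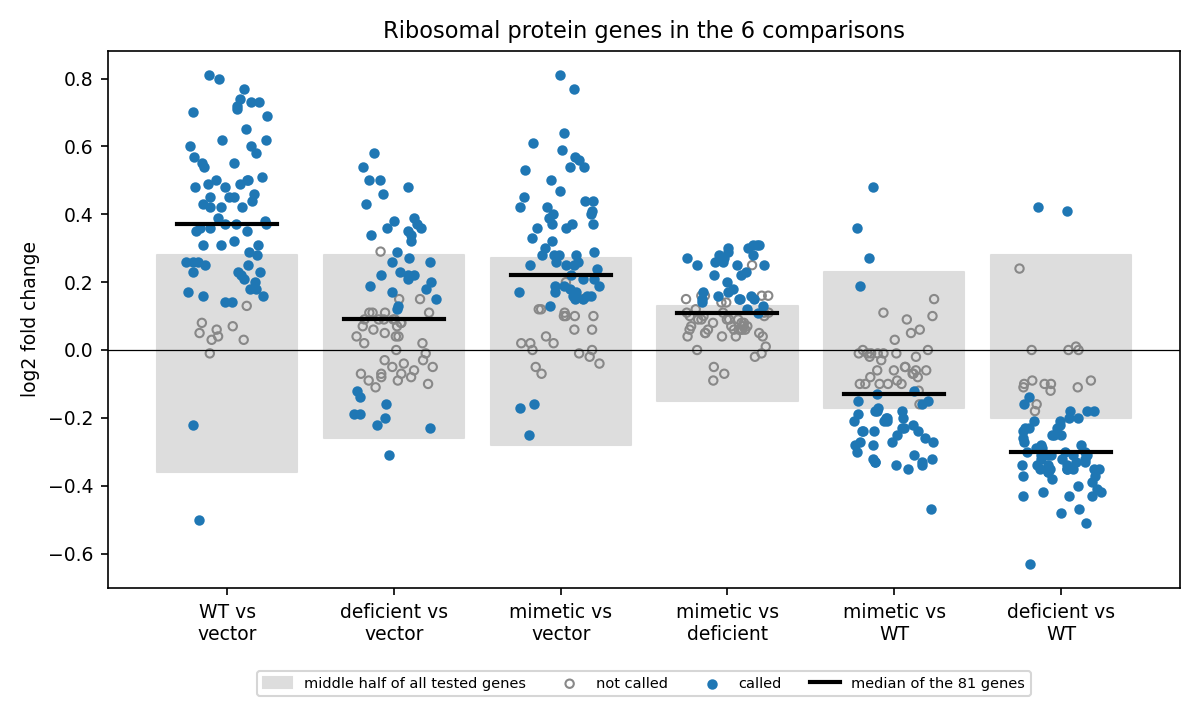
Log2 fold changes of the 81 ribosomal protein genes in the 6 comparisons. Points are genes (filled where called), black bars are their medians and grey bands span the first to the third quartile of all tested genes; the medians run from 0.37 in WT against vector to -0.3 in deficient against WT.

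Read gene by gene, 31 genes rose in all 3 Zeb1 lines against vector, 16 of them of the large and 15 of the small subunit. The same pattern was seen in 16.6% of all tested genes. Their log2 fold changes were 0.26 to 0.81 in mimetic, 0.12 to 0.58 in deficient and 0.26 to 0.81 in WT. A further 23 genes rose in mimetic and WT and were not called in deficient, a pattern of 3.8% of all tested genes. Another 13 rose in WT without a call in the other lines, with log2 fold changes of 0.14 to 0.45, a pattern of 6% of all tested genes. The genes that fell in at least 1 line included Rpl7, Rpl23, Rpl30, Rps15a, Rpl38, Rps4x, Rpl28, Rps23 and Rpl22l1, and Rpl23a, Rpl24 and Rps3a1 were called in none.

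**Figure D3:**
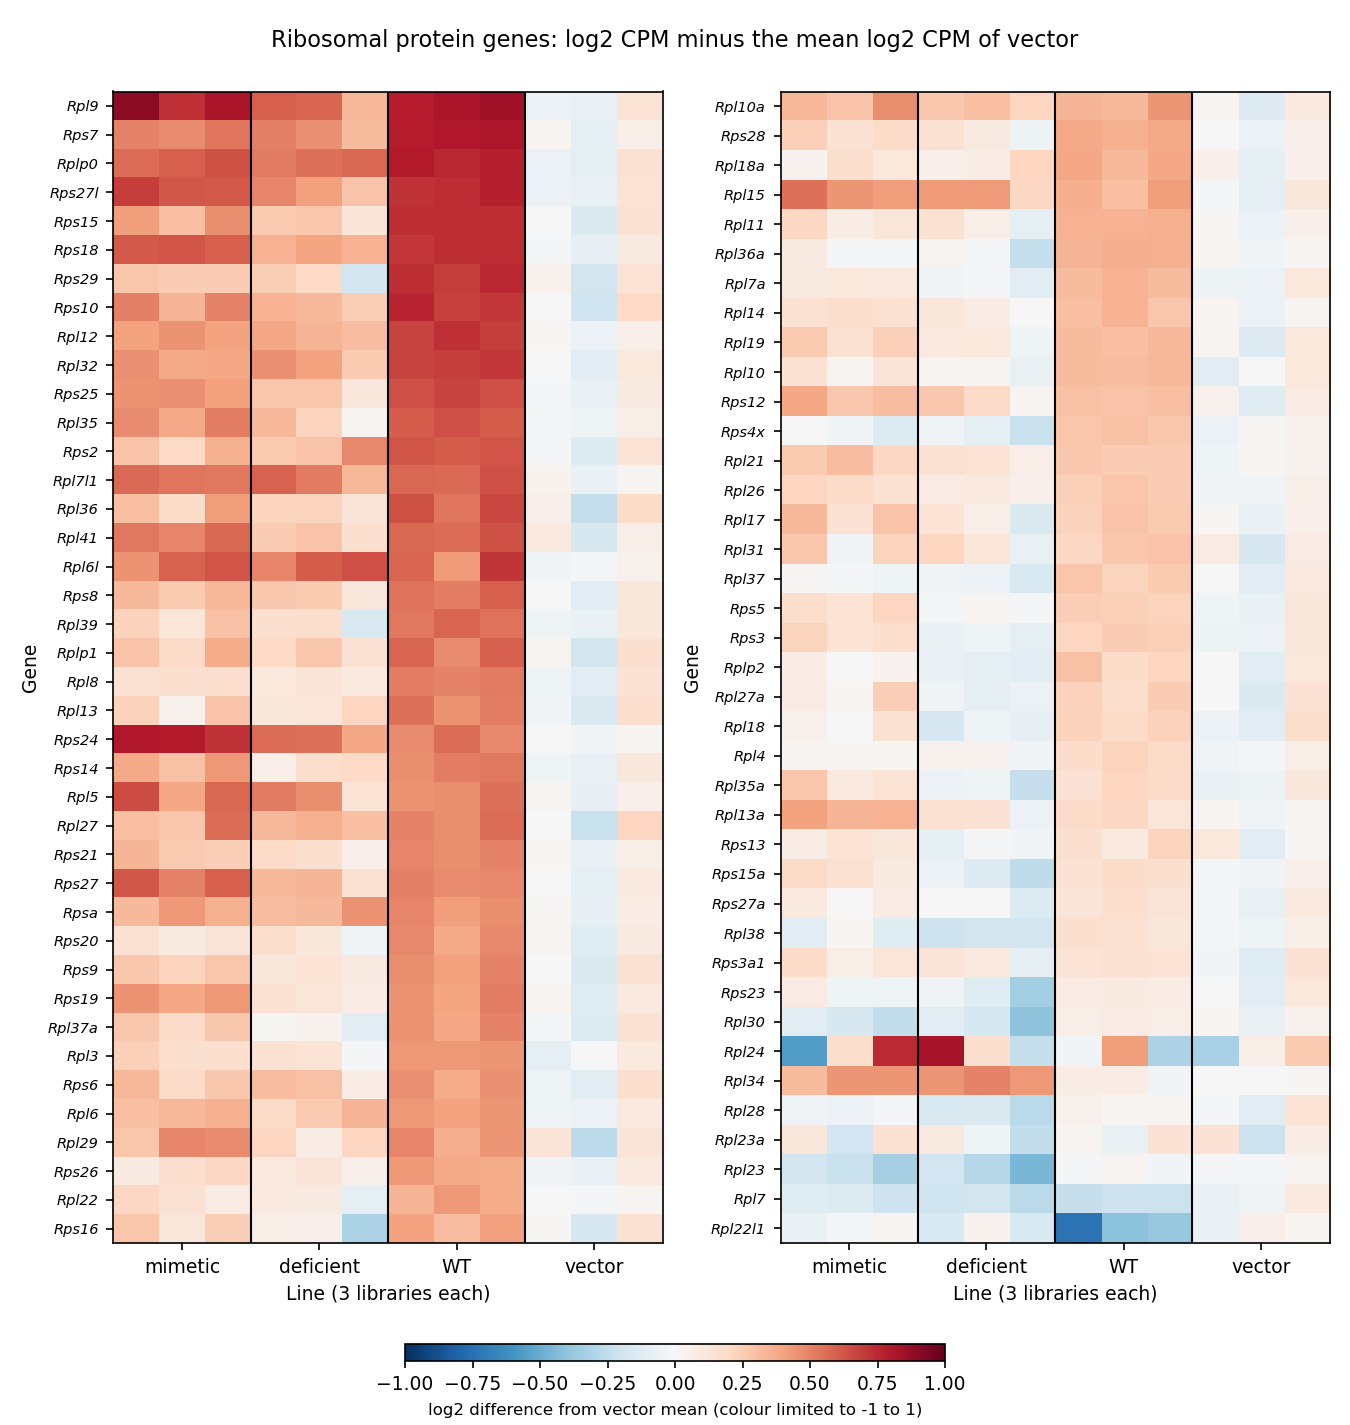
Log2 CPM of ribosomal protein genes in each of the 12 libraries, minus the gene's mean log2 CPM over the 3 vector libraries. Genes are sorted by their fold change in WT against vector; Rpl9 and Rps7 lead the first panel and Rpl22l1 ends the second, where all 3 of its WT libraries are blue. Rpl24, under 1 CPM, scatters in every line.

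Rpl9, a protein near the base of the stalk, gave the largest log2 fold change of the family in both mimetic and WT. It stood at 1214, 1081 and 1150 CPM in the mimetic line, 985, 973 and 820 CPM in the deficient line, 1121, 1149 and 1165 CPM in the WT line and 626, 617 and 716 CPM in the vector line. Every Zeb1 library lay above every vector library. The log2 fold change against vector was 0.81 ± 0.06 in mimetic (standard error here and below; adjusted p = 9.77e-10), 0.5 ± 0.06 in deficient (adjusted p = 1.08e-06) and 0.81 ± 0.06 in WT (adjusted p = 7.71e-10).

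Rps24, a small subunit protein whose human gene is mutated in Diamond-Blackfan anemia, was highest in the mimetic line. Its levels were 2350, 2341 and 2232 CPM in the mimetic line, 1988, 1980.1 and 1772 CPM in the deficient line, 1874, 1992 and 1886 CPM in the WT line and 1359, 1329 and 1368 CPM in the vector line. The mimetic libraries lay above all others, and the deficient and WT libraries overlapped. It rose by 0.77 ± 0.05 in mimetic against vector (adjusted p = 9.86e-12), and by 0.5 ± 0.05 in both other lines (adjusted p = 9.43e-09 in deficient and 5.66e-09 in WT), on the log2 scale.

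Rps7, Rps15 and Rps18 are small subunit proteins that were highest in the WT line. Rps7 stood at 418, 413 and 431 CPM in the mimetic line, 422, 407 and 370 CPM in the deficient line, 512, 517 and 521 CPM in the WT line and 301, 279 and 311 CPM in the vector line. The WT libraries lay above all others and the vector libraries below all others, while mimetic and deficient overlapped. Its log2 fold change was 0.5 ± 0.05 in mimetic (adjusted p = 1.79e-08), 0.43 ± 0.05 in deficient (adjusted p = 2.02e-07) and 0.8 ± 0.05 in WT (adjusted p = 9.74e-12). Rps15, which reaches towards the decoding site, averaged 1207 ± 69 CPM in the mimetic line, 1071 ± 60 CPM in the deficient line, 1528 ± 4 CPM in the WT line and 920 ± 94 CPM in the vector line (SD, n = 3 each). Its rise in WT against vector was 0.73 ± 0.06 (adjusted p = 1.16e-09). Rps18 rose by 0.61 ± 0.04 in mimetic (adjusted p = 1.23e-10) and by 0.73 ± 0.04 in WT (adjusted p = 5.08e-12).

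The stalk genes did not share 1 size of change. Rplp0, on which the stalk is built, stood at 1757, 1797 and 1848 CPM in the mimetic line, 1703, 1742 and 1773 CPM in the deficient line, 2058, 2007 and 2043 CPM in the WT line and 1145, 1111 and 1327 CPM in the vector line. No Zeb1 library overlapped the vector libraries. Its log2 fold change was 0.59 ± 0.05 in mimetic, 0.54 ± 0.05 in deficient and 0.77 ± 0.05 in WT (adjusted p = 3.89e-09, 1.71e-08 and 5.09e-11). Its partner Rplp1 rose by 0.28 ± 0.07, 0.2 ± 0.07 and 0.54 ± 0.07 in the same order (adjusted p = 0.00101, 0.0127 and 3.56e-07). Rplp2, the other partner, rose in WT by 0.23 ± 0.05 (adjusted p = 0.000282), and had log2 fold changes of 0.04 in mimetic (adjusted p = 0.512) and -0.09 in deficient (adjusted p = 0.103).

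Rpl5, Rpl11 and Rpl23 can bind MDM2, the ubiquitin ligase of p53, when they are free of the ribosome. Rpl5 rose in mimetic by 0.54 ± 0.08, in deficient by 0.38 ± 0.08 and in WT by 0.49 ± 0.08 (adjusted p = 3.85e-06, 0.000208 and 1.09e-05). Rpl11 rose in mimetic by 0.13 ± 0.05 and in WT by 0.35 ± 0.05 (adjusted p = 0.0348 and 6.65e-06), and its log2 fold change in deficient was 0.04 (adjusted p = 0.492). Rpl23 went the other way: it fell in mimetic and deficient.

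Rpl23 stood at 2393, 2327 and 2161 CPM in the mimetic line, 2380, 2236 and 1980.4 CPM in the deficient line, 2683, 2767 and 2676 CPM in the WT line and 2684, 2705 and 2775 CPM in the vector line. The WT and vector libraries overlapped, and all mimetic and deficient libraries lay below both. The log2 fold change against vector was -0.25 ± 0.05 in mimetic (adjusted p = 0.000492), -0.31 ± 0.05 in deficient (adjusted p = 5.2e-05) and -0.01 ± 0.05 in WT (adjusted p = 0.922). Neither fall passed the test against a 1.2-fold minimum (adjusted p = 0.65 in mimetic and 0.206 in deficient). Rpl30, a large subunit protein, also fell in both lines, with log2 fold changes of -0.17 ± 0.06 in mimetic (adjusted p = 0.0136) and -0.23 ± 0.06 in deficient (adjusted p = 0.00215). Its call in mimetic was lost without mimetic library 3 (adjusted p = 0.0761) and with library size alone (adjusted p = 0.145).

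Rpsa and Rps6 lie in the small subunit, and Rps6 is the known substrate of S6 kinase. Rpsa stood at 6532, 7060.1 and 6660 CPM in the mimetic line, 6451, 6537 and 7138 CPM in the deficient line, 7317, 6981 and 7217 CPM in the WT line and 5248, 4917 and 5504 CPM in the vector line. The Zeb1 lines overlapped each other and not the vector line. It rose by 0.37 ± 0.05, 0.36 ± 0.05 and 0.46 ± 0.05 in mimetic, deficient and WT (adjusted p = 1.6e-06, 2.41e-06 and 6.69e-08). Rps6 rose by 0.26 ± 0.07, 0.22 ± 0.07 and 0.42 ± 0.06 (adjusted p = 0.00194, 0.00607 and 9.22e-06).

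Paralogs and their parent genes are compared next as a ratio within each library, which needs no scaling. For 3 pairs both genes were in the table, and each ratio was tested over the 4 lines by an exact permutation of the 12 libraries, two-sided, with p adjusted over the 3 pairs. In mouse, the Rpl22 protein is known to bind and lower the mRNA of its paralog Rpl22l1. The Rpl22l1 counts were 2.97, 3.2 and 3.43% of the Rpl22 counts in the mimetic libraries, 3.03, 3.48 and 3.43% in the deficient libraries, 1.7, 2 and 2.12% in the WT libraries and 3.45, 3.77 and 3.57% in the vector libraries. The WT libraries lay below all others. The line means spread 1.86-fold, and the ratio differed between lines (exact p = 0.00247, adjusted p = 0.00247).

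Rpl22l1 lies at chr3:28805436-28807424 on the plus strand and Rpl22 at chr4:152325742-152334071 on the plus strand (GENCODE M21, GRCm38). Both genes of this pair moved in the WT line. Rpl22l1 stood at 14.3, 14.9 and 15.2 CPM in the mimetic line, 13.5, 15.4 and 13.5 CPM in the deficient line, 8.98, 11.3 and 11.5 CPM in the WT line and 14.3, 15.5 and 15.2 CPM in the vector line. In WT against vector it fell, with a log2 fold change of -0.5 ± 0.1 (adjusted p = 0.000176), while Rpl22 rose by 0.38 ± 0.05 (adjusted p = 6.71e-07). Between 259 and 400 tags per WT library were counted for Rpl22l1. In mimetic and deficient against vector, Rpl22l1 had log2 fold changes of -0.02 (adjusted p = 0.863) and -0.08 (adjusted p = 0.47).

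Rpl7l1, at chr17:46773907-46782672 on the minus strand, and Rpl7, at chr1:16101295-16104662 on the minus strand, formed a pair that separated the vector line from the others. The Rpl7l1 counts were 13.8, 13.7 and 14.3% of the Rpl7 counts in the mimetic libraries, 14.9, 14 and 13.1% in the deficient libraries, 15.1, 14.7 and 15.6% in the WT libraries and 9.21, 8.44 and 8.15% in the vector libraries. All vector libraries lay below all others, with a 1.76-fold spread of line means (exact p = 0.0024, adjusted p = 0.00247). The genes moved in opposite directions: Rpl7l1 rose by 0.54, 0.48 and 0.6 in mimetic, deficient and WT, and Rpl7 had log2 fold changes of -0.16 ± 0.04, -0.22 ± 0.04 and -0.22 ± 0.04 (adjusted p = 0.00453, 0.000242 and 0.000207). Rpl7, a large subunit protein, was the only member called lower in all 3. It stood at 1550, 1531 and 1459 CPM in the mimetic line, 1465, 1481 and 1397 CPM in the deficient line, 1435, 1463 and 1449 CPM in the WT line and 1614, 1643 and 1806 CPM in the vector line. Every Zeb1 library lay below every vector library. The fall did not pass the test against a 1.2-fold minimum in any of the 3 lines, and the call in mimetic was lost with library size alone (adjusted p = 0.0985).

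Rps27l and Rps27 are small subunit paralogs, and Rps27l is known as a p53-induced gene. The Rps27l counts averaged 24.1 ± 0.93% of the Rps27 counts in the mimetic line, 24.9 ± 0.82% in the deficient line, 27.4 ± 0.73% in the WT line and 22.9 ± 0.88% in the vector line (SD, n = 3 each). The spread of means was 1.2-fold (exact p = 0.00162, adjusted p = 0.00247). Both genes rose in all 3 lines. Rps27l rose by 0.64 ± 0.06 in mimetic, 0.39 ± 0.06 in deficient and 0.74 ± 0.06 in WT (adjusted p = 1.32e-08, 1.18e-05 and 9.91e-10), and Rps27 by 0.57, 0.27 and 0.48.

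**Figure D4:**
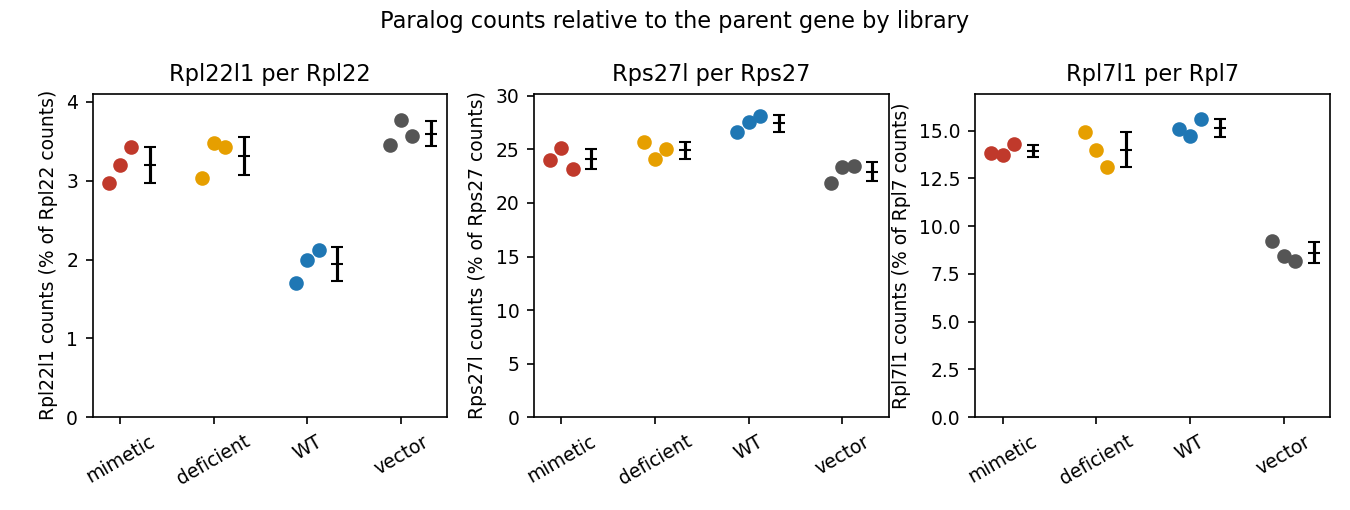
Counts of a paralog as a percentage of the counts of its parent gene in the same library. Points are libraries, and the bars beside them give the mean and SD of 3 libraries per line; Rpl22l1 lies lowest in WT, at 1.7 to 2.12%, and Rpl7l1 lowest in vector, at 8.15 to 9.21%.

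A further edgeR fit scaled each library to its ribosomal protein counts. A call there is a departure from the family's summed level and not a change of the gene's own level. In mimetic against vector 20 genes were higher and 18 lower than the family (12.7% and 49.9% of all tested genes), in deficient 24 and 21 (18.3% and 36.1%), and in WT 20 and 28 (8.69% and 65.2%). In WT the largest departures were Rpl22l1 at -0.9 (adjusted p = 3.63e-07), Rpl7 at -0.62 (adjusted p = 6.37e-10) and Rpl9 at 0.42 (adjusted p = 5.27e-07), on the log2 scale. In mimetic they were Rpl9 at 0.58 (adjusted p = 8.99e-09), Rps24 at 0.54 (adjusted p = 1.98e-08) and Rpl23 at -0.48 (adjusted p = 2.56e-07). In deficient they were Rpl6l, the pseudogene, at 0.48 (adjusted p = 0.0249), Rplp0 at 0.45 (adjusted p = 6.05e-07) and Rpl23 at -0.41 (adjusted p = 2.7e-06). The Rpl6l call was lost without deficient library 2 or 3 or vector library 1 or 3, each left out singly.

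Between the Zeb1 lines, the called ribosomal protein genes were higher in mimetic than in deficient, and mostly lower in both than in WT. In mimetic against deficient 32 genes were higher, where 12.6% of all tested genes were higher, and 0 were lower, where 14.9% were. By edgeR's unadjusted p, DESeq2 and limma-voom the count of lower genes was also 0. The median log2 fold change was 0.11, and without deficient library 3 the count of higher genes was 21. With a 1.2-fold minimum 0 were higher (2.23% of all genes) and 0 were lower (4.49%), also at the unadjusted p. Library size alone moved the split of all called genes to 1982 higher and 1509 lower, from 1510 and 1789.

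In mimetic against deficient the largest changes were near 1.24-fold. Rps19, whose human gene is the most often mutated in Diamond-Blackfan anemia, stood at 466, 446 and 462 CPM in the mimetic line and at 379, 370 and 359 CPM in the deficient line. The libraries did not overlap, and the log2 fold change was 0.31 ± 0.05 (adjusted p = 6.51e-05). Rpl9, Rpl41 and Rps27 had log2 fold changes of 0.31, 0.3 and 0.3. None of these 4 calls passed the 1.2-fold minimum (adjusted p = 0.435 to 0.648).

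In mimetic against WT 41 genes were lower and 4 were higher, where 21.8% of all tested genes were lower and 23.1% were higher, and the median log2 fold change was -0.13. The 4 higher genes were Rpl22l1, Rpl34, Rps24 and Rpl13a. Library size alone gave 8 higher genes, and moved the split of all called genes to 3506 higher and 1980 lower, from 2780 and 2618. With a 1.2-fold minimum 1 gene was higher (9.6% of all genes) and 1 lower (5.15%). Rps29, a small zinc-binding protein of the small subunit, led the lower genes, at 597, 588 and 587 CPM in the mimetic line and 823, 797 and 830.1 CPM in the WT line, with a log2 fold change of -0.47 ± 0.08 (adjusted p = 9.16e-05). Rpl8 followed at -0.35 ± 0.05 (adjusted p = 6.67e-06), then Rps15 and Rps2, both at -0.34 ± 0.06 (adjusted p = 9.8e-05 and 0.000128).

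In deficient against WT 64 genes were lower and 2 were higher, where 26.3% of all tested genes were lower and 27.5% were higher. The median log2 fold change was -0.3, and with a 1.2-fold minimum 17 genes were lower (8.31% of all genes) and 1 was higher (14.3%). Rps29 again changed most, at 584, 565 and 435 CPM in the deficient line, with a log2 fold change of -0.63 ± 0.08 (adjusted p = 1.76e-06). Rps15, Rpl39, Rpl37a and Rps16 followed, at -0.51, -0.48, -0.47 and -0.43. Without deficient library 3 the values were -0.51 for Rps29, -0.47 for Rps15, -0.39 for Rpl39, -0.42 for Rpl37a and -0.32 for Rps16. Rpl39 is a small protein in the wall of the peptide exit tunnel. The 2 higher genes were Rpl22l1, at 0.42 ± 0.1 (adjusted p = 0.00157), and Rpl34, at 0.41 ± 0.06 (adjusted p = 1.65e-05). The comparisons between the Zeb1 lines share libraries with each other and with those against vector.

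Scaled to the family, 10 genes were higher and 2 lower in mimetic against deficient (3.59% and 26.1% of all tested genes). In mimetic against WT 18 were higher and 11 lower (37.8% and 6.68%), and in deficient against WT 18 were higher and 7 lower (58% and 4.96%). These counts were small, and the counts of higher genes fell whichever library was left out. They became 2 to 8 in mimetic against deficient, 9 to 16 in mimetic against WT and 10 to 15 in deficient against WT. The 2 was without mimetic library 1. Rpl22l1 and Rpl34 departed most from the family, at 0.64 (adjusted p = 0.000101) and 0.52 (adjusted p = 2.32e-05) in mimetic against WT, and at 0.71 each (adjusted p = 1.45e-05 and 2.21e-07) in deficient against WT.

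Rpl34, a large subunit protein, was called higher in mimetic and deficient and not in WT, a pattern of 4.27% of all tested genes. It was the only 1 of the 81 genes to do so. It stood at 33.1, 36.1 and 36 CPM in the mimetic line, 36, 37.4 and 35.8 CPM in the deficient line, 28, 28 and 26.1 CPM in the WT line and 26.4, 26.4 and 26.8 CPM in the vector line. The mimetic and deficient libraries lay above the WT and vector libraries, which overlapped. The log2 fold change against vector was 0.4 ± 0.06 in mimetic (adjusted p = 1.65e-05), 0.46 ± 0.06 in deficient (adjusted p = 3.36e-06) and 0.04 ± 0.06 in WT (adjusted p = 0.564), and in mimetic against WT it was 0.36 ± 0.06 (adjusted p = 0.000124).

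Ordered by mean level, the lines ran WT, mimetic, deficient, vector from high to low in 42 of the 81 genes, and WT, mimetic, vector, deficient in 16. WT was the highest line for 66 genes and vector the lowest for 55, with deficient the lowest for 25. Neighbours in this order were often not called different: mimetic and WT for 36 genes, mimetic and deficient for 49, and deficient and vector for 40. Of the 12027 tested genes, 6629, 8728 and 5026 were not called in the same comparisons. Orders of the lines, and the highest and lowest line, were not counted over all tested genes.

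The 81 genes lie on 19 chromosomes, with 14 on chromosome 7. Set against the median log2 fold change of the other genes on the same chromosome, 74 of the 81 genes were higher in mimetic against vector, 62 in deficient and 80 in WT, with median differences of 0.27, 0.13 and 0.43. Rpl7 differed from the median of chromosome 1 by -0.08 in mimetic, -0.17 in deficient and 0.01 in WT against vector. The genes with a pyrimidine run near the annotated start had median log2 fold changes against vector of 0.26 in mimetic, 0.11 in deficient and 0.36 in WT (n = 33). Those without one had 0.19, 0.07 and 0.37 (n = 27).

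Other genes of translation were followed by role. Their counts stand beside shares of all tested genes of 28.6% higher and 30.9% lower in mimetic, 28.4% and 29.8% in deficient, and 31% and 33.6% in WT against vector, and most of these lists are short. Of 4 further ribosome components, 3 rose in mimetic, 4 in deficient and 3 in WT against vector. Among them Fau, which encodes a small subunit protein fused to a ubiquitin-like domain, rose by 0.42 ± 0.04 in mimetic, 0.41 ± 0.04 in deficient and 0.68 ± 0.04 in WT (adjusted p = 2.33e-08, 3.65e-08 and 1.13e-11). Rack1, a scaffold protein of the small subunit, rose by 0.28 ± 0.05, 0.11 ± 0.05 and 0.52 ± 0.05 (adjusted p = 2.81e-05, 0.0409 and 3.85e-09).

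Of 9 elongation and termination factors measured, 4 rose and 0 fell in mimetic, 3 rose and 1 fell in deficient, and 6 rose and 1 fell in WT, with median log2 fold changes of 0.09, -0.03 and 0.22. Eef1a1, which delivers aminoacyl-tRNA, stood at 13857, 13915 and 13843 CPM in the mimetic line, 13027, 13274 and 12524 CPM in the deficient line, 16011, 16483 and 16267 CPM in the WT line and 11405, 11678 and 12508 CPM in the vector line. The WT libraries were the highest, and it rose by 0.23 ± 0.04, 0.13 ± 0.04 and 0.45 ± 0.04 (adjusted p = 8.04e-05, 0.0127 and 5.82e-09).

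Of 14 subunits of initiation factor eIF3, 8 rose and 4 fell in mimetic, 5 rose and 4 fell in deficient, and 8 rose and 1 fell in WT. Eif3i rose by 0.35 in mimetic, 0.23 in deficient and 0.56 in WT, and Eif3c had log2 fold changes of -0.34, -0.3 and -0.43 (adjusted p = 2.07e-07, 1.18e-06 and 4.64e-09). Of 24 other initiation factors, 13 rose and 3 fell in mimetic, 13 rose and 5 fell in deficient, and 11 rose and 7 fell in WT. Eif4g3, a scaffold of the cap-binding complex, rose by 1.53 ± 0.11, 1.31 ± 0.11 and 0.74 ± 0.11 (adjusted p = 2.19e-10, 2.73e-09 and 6.52e-06). Of 8 other TOP mRNAs, 4 rose and 2 fell in mimetic, 3 rose and 4 fell in deficient, and 5 rose and 2 fell in WT.

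Of 17 genes of the pathway that controls TOP mRNAs, 3 rose and 8 fell in mimetic, 4 rose and 9 fell in deficient, and 5 rose and 7 fell in WT. Rps6kb1, an S6 kinase, had log2 fold changes of -0.53 ± 0.04, -0.42 ± 0.04 and -0.67 ± 0.04 (adjusted p = 5.14e-10, 1.32e-08 and 7.43e-12). Of 9 transcription factors known to act on ribosomal protein genes, 5 rose and 2 fell in mimetic, 6 rose and 2 fell in deficient, and 3 rose and 3 fell in WT. Gabpa, a subunit of GABP, had log2 fold changes of -0.35, -0.46 and -0.29 (adjusted p = 3.95e-06, 1.49e-07 and 3.41e-05). Myc, a factor that raises ribosome production and was chosen here after its values were seen, was lower in WT than in vector, at -0.25 ± 0.07 (adjusted p = 0.00323), and higher in deficient, at 0.24 ± 0.07 (adjusted p = 0.00375).

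Of 10 chaperones and importers of ribosomal proteins, 4 rose and 3 fell in mimetic, 2 rose and 3 fell in deficient, and 4 rose and 2 fell in WT, shares near those of all tested genes. Tsr2, the chaperone of Rps26, rose by 0.52 ± 0.06, 0.48 ± 0.06 and 0.46 ± 0.06 (adjusted p = 5.23e-07, 1.62e-06 and 2.44e-06). Of 11 p53 target genes measured, 5 rose and 3 fell in mimetic, 7 rose and 1 fell in deficient, and 4 rose and 2 fell in WT. Cdkn1a, the p53-induced inhibitor of the cell cycle, had log2 fold changes of -0.76 ± 0.1 in mimetic (adjusted p = 1.58e-06) and -0.57 ± 0.1 in WT (adjusted p = 3.26e-05), and rose in deficient by 0.63 ± 0.09 (adjusted p = 5.84e-06). None of 14 host genes of small nucleolar RNAs was in the table, and they are not analysed here.

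**Figure D5:**
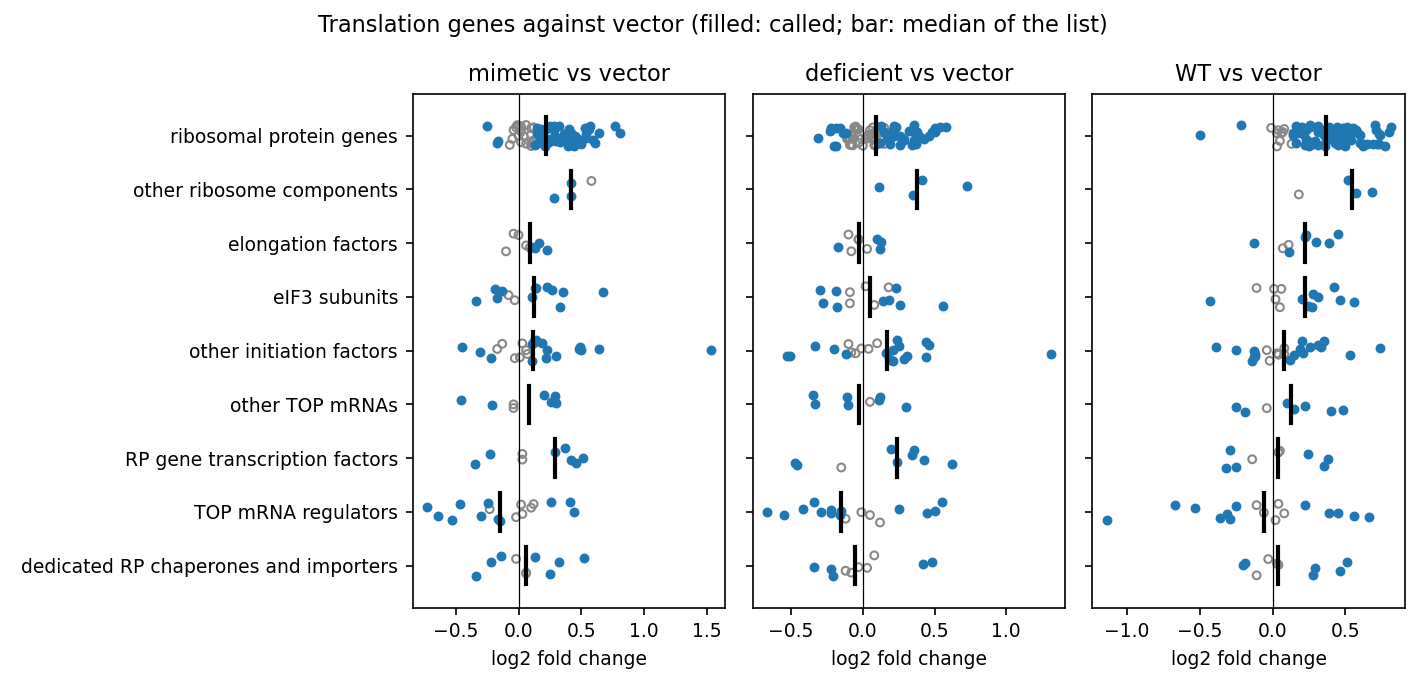
Log2 fold changes against vector of the 81 ribosomal protein genes and of 8 lists of translation genes, in mimetic, deficient and WT. Points are genes (filled where called) and black bars are list medians; the ribosomal protein medians are 0.22, 0.09 and 0.37.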

How the data were processed

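The authors deposited raw counts per gene for 12 libraries of 3′ tag sequencing, in a table of 12208 genes. Per the submitters' processing notes, reads were aligned with STAR to mm10; which tool counted the tags, on which strand and against which annotation is not stated in the labels. Library totals ran from 24356697 to 39029599 counts, and replicates differed by more than sampling noise, at a chi-square per gene of 2.96 to 23.6.

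The ribosomal protein genes, the other lists and the tests were chosen with earlier results of these data known. The counts were fitted with edgeR 4.0.16 (quasi-likelihood test, TMM factors, filterByExpr) in R 4.3.3, with 1 coefficient for each of the 4 lines and all 12 libraries sharing the estimate of spread, and p-values were adjusted by Benjamini-Hochberg over 12027 genes. The filter removed 181 genes and none of the ribosomal protein genes. A second fit took the summed ribosomal protein counts as library size, with TMM factors over those genes. Paralog ratios were tested with an exact permutation test. Genes were named by rule: paralogs with their parents, the 5 called genes of largest change in each comparison, up to 5 called against the main direction, the 5 highest and 5 lowest in level, the stalk genes, the MDM2 binders, Rps6 and Rpsa, the 3 largest departures from the family, and up to 4 genes of smallest adjusted p in each other list. Of those, 1 or 2 per list are described. Some genes that the rule names are not reported here, nor drawn in the plot of levels by gene and library.

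Alternatives were other scalings and filters, DESeq2 1.42.0, limma-voom (limma 3.58.1), a minimum fold change of 1.2, fits of just the 2 lines in question, the replicate number as a block, and leaving out each library. The scripts were tested on simulated data. Copies were searched with BLAST 2.17.0 in GENCODE M21.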

Additional observations from a re-analysis of the deposited data

Results flagged for a closer look

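Rps15a, Rpl38 and Rps4x were called in opposite directions against the vector line in different Zeb1 lines, and the difference between those lines was itself called by edgeR's quasi-likelihood test. Rps15a, a small subunit protein, stood at 539, 524 and 501 CPM in the mimetic line, 452, 432 and 395 CPM in the deficient line, 520, 535 and 528 CPM in the WT line and 464, 462 and 489 CPM in the vector line. The deficient libraries lay below all others. Its log2 fold change against vector was 0.15 in mimetic, -0.14 in deficient and 0.16 in WT. It was 0.29 in mimetic against deficient (adjusted p = 7.7e-05) and -0.31 in deficient against WT (adjusted p = 1.34e-05).

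Rpl38, known in mouse for the translation of Hox mRNAs, averaged 243 ± 2.2 CPM in the deficient line, 306 ± 5.5 CPM in the WT line and 277 ± 10 CPM in the vector line (SD, n = 3 each), with no overlap between the libraries of these lines. It had log2 fold changes against vector of -0.19 in deficient and 0.14 in WT, and of -0.33 in deficient against WT (adjusted p = 1.9e-06). Rps4x, a small subunit protein encoded on the X chromosome, had log2 fold changes of -0.12 in deficient and 0.28 in WT against vector, and of -0.39 in deficient against WT (adjusted p = 8.69e-07). The deficient and vector libraries of Rps4x overlapped, at 1364 to 1552 CPM and 1530 to 1646 CPM.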

How the results depend on the processing

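Of 1423 values of named genes under alternatives, 1368 kept their direction and side of the threshold, 42 lost a call, 6 gained one and 7 turned direction. Those 7 were values near 0 that were not called: with library size alone, Rpl22l1 in mimetic against vector (0.05), Rpl7l1 in mimetic against WT (0.00) and Rpl7 in deficient against WT (0.03); Rpl7 in deficient against WT with at least 5 CPM in 3 libraries (0.02); and with 1 library left out, Rpl22l1 in mimetic against vector (-0.05 to 0), Rpl7l1 in mimetic against deficient (-0.01 to 0.11) and Rpl7 in deficient against WT (-0.02 to 0.02).

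Library size alone gave 1 lower gene in mimetic against vector and 8 higher in mimetic against WT. A minimum fold change of 1.2 left 23 higher and 0 lower genes in mimetic against vector, 12 and 0 in deficient against vector, 43 and 1 in WT against vector, 0 and 0 in mimetic against deficient, 1 and 1 in mimetic against WT, and 1 and 17 in deficient against WT. With only the 2 lines compared, mimetic against WT had 7 higher genes. Scaled to the family, that fit gave 1 lower gene in mimetic against deficient, 24 in mimetic against WT and 12 in deficient against WT. Summed counts without TMM gave 16 lower genes in deficient against WT. In mimetic against deficient, RLE factors over the family gave 6 higher genes, and leaving the 5 most abundant genes out of the sum gave 6 higher and 5 lower. The share in the WT line was 7.69% without mitochondrial and satellite genes. Apart from the minimum fold change, which is a stricter test, the cause was not tested. The 2-line fits changed the filter, the TMM factors and the estimate of spread together.

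With 1 library left out, higher genes numbered 21 to 31 in mimetic against deficient, with 21 without deficient library 3, and 26 to 41 in deficient against vector. The 9 lower genes there became 6 without deficient library 3. Scaled to the family, mimetic against deficient had 2 to 8 higher and 0 to 2 lower genes, mimetic against WT 9 to 16 and 7 to 11, and deficient against WT 10 to 15 and 6 to 8. The lowest were without mimetic library 1 (2 higher in mimetic against deficient, 7 lower in mimetic against WT) and without WT library 1 (9 higher in mimetic against WT, 10 in deficient against WT).

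Deviations of same-numbered libraries were weakly correlated at most (correlations of -0.08 to 0.13 over 18 pairs, 1 over 0.1). With 3 libraries per line, this cannot show whether a number marks a shared batch, and the labels do not say. A replicate block gave 58 higher genes in mimetic against vector, 34 in deficient against vector, 70 in WT against vector and 34 in mimetic against deficient, and 41 lower genes in mimetic against WT and 65 in deficient against WT. Depth limits Rpl24 and Rpl6l, both under 5 CPM.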
